A study of Mus musculus with 8 samples.

Results

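Islr2, its paralog Islr, the neurexophilin genes Nxph1, Nxph2, Nxph3 and Nxph4, and the neurexin genes Nrxn2 and Nrxn3 were examined in mouse embryonic stem cells (ESCs) depleted of KDM2B. These 8 genes were taken by name, and each was read by probe sets of the array that name it and no other gene. They stand for 8 of the 19938 genes that the array reads on their own, and for 9 of 21789 such probe sets, because Nxph1 has 2. Islr2 and Nxph4 were chosen by their difference in signal between the groups on these same arrays, and the other genes were added as their relatives. The differences of all 8 genes are therefore given as a description without a test.

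The cells were E14, a feeder-independent mouse ESC line grown with the cytokine LIF. The knockdown line stably expressed an shRNA against Kdm2b and the control line a scrambled shRNA, both delivered by a lentivirus and kept under puromycin, so that the control cells had also been infected and selected. Each group rests on 1 shRNA sequence, and the labels name no independently made line behind a replicate. Knockdown cells were taken at passages 27 to 30 and control cells at passages 28 to 31, with 4 arrays per group and each knockdown sample 1 passage below the control sample of its number. These are the 2 interfering sequences, shown because the whole comparison depends on them.
shKdm2b: cgctgtggaaatatctgtcat
shScrambled: cctaaggttaagtcgccctcg

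Islr2, also called Linx, is a membrane protein with leucine-rich repeats (LRRs) and an immunoglobulin domain, and is known for its association with receptor tyrosine kinases in growing axons. Islr, also called Meflin, shares this domain order and is better known from stromal cells. Neurexophilins are secreted glycoproteins that bind the long, or alpha, form of neurexins, and neurexins are presynaptic receptors that join the synapse through ligands such as neuroligins, LRRTM proteins and cerebellins. ESCs are not synaptic cells, and many genes of neuronal function are held at low expression there by polycomb complexes. KDM2B binds unmethylated CpG dinucleotides through a zinc finger domain and belongs to a variant of the polycomb complex PRC1.

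Each value below is a log2 signal that the authors made with RMA, which equalises the distribution of probe intensities across arrays before they are summarised by probe set. Array medians ran from 8.47 to 8.53, and a probe set below them is dim here, where fold changes can be compressed. In the control arrays Kdm2b read 10.74, 11.10, 11.34 and 11.20 in replicates 1 to 4, against 8.68, 9.12, 9.45 and 8.91 in the knockdown arrays. It fell by 75.9% (log2 fold change -2.05, standard error (SE) 0.18, limma adjusted p = 0.000891). All 12 ESC markers measured lay above the array median on every array, as the label of the cells requires. Replicates of a group are described as biological, and the differences below measure the spread between these samples and not between shRNAs or lines. In bulk RNA, more cells that express a gene and more RNA per cell cannot be told apart.

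The promoters of the genes were compared for CG content, which the choice of genes did not use. RefSeq promoter windows of GRCm38.p6, each from 250 bases before to 50 bases after a transcription start, were found for 5 of the 8 genes, Islr2, Islr, Nxph1, Nxph2 and Nrxn3. The motif searched was CG, which reads the same on both strands, and the table held 32851 windows with a median of 7. The window of Nxph2 and the first of Islr2 begin before the annotated gene, whereas the others, including those of Islr, Nxph1 and Nrxn3, lie at least partly within the span of their gene, at the start of one of its transcripts. The 250 bases before the start are shown for the genes of these 5 with the largest and the smallest difference between the groups, with each CG in capitals. The Islr2 stretch is chr9:58204320-58204569 on the minus strand, and that of Nxph2 is chr2:23320996-23321245 on the plus strand.
Islr2: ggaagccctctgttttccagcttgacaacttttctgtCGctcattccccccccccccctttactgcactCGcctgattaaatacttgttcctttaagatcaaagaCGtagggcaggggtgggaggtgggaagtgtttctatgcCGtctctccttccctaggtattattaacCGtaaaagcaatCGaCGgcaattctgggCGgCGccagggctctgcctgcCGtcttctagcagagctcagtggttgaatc
Nxph2: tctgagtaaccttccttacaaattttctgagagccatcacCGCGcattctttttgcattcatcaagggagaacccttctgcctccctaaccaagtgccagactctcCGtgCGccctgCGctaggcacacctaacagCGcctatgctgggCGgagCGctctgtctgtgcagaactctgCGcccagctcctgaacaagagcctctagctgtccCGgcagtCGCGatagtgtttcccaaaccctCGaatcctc

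The Islr2 stretch holds 10 CG and the Nxph2 stretch 13. Over the whole 300-base window the first start of Islr2 had 14 CG, and 36.3% of all windows had at least as many. Its other starts had 6 and 11. Nxph2 had 15 CG (at least as many in 34.6% of windows), and Nxph1 had the highest count, 21 (24.8% of windows). The window of Islr, at a start inside the gene's span, lay at the other end, with 1 CG and a ratio of observed to expected CG of 0.05, and 94.6% of windows had at least as many CG. The 3 starts of Nrxn3 had 2, 6 and 16. Methylation and KDM2B binding were not measured on these arrays.

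**Figure D1:**
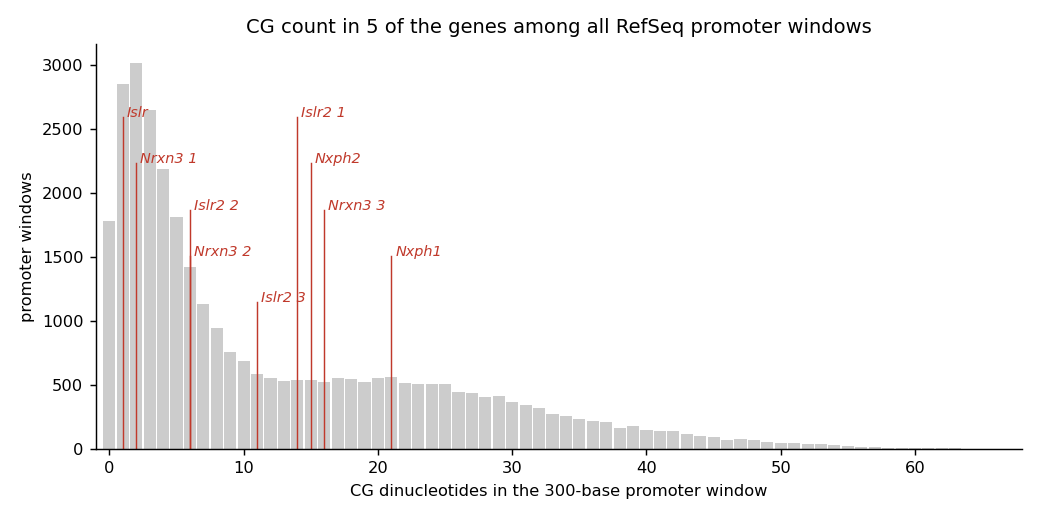
Number of CG dinucleotides in the 300-base promoter windows of all genes of the RefSeq table (grey bars, 32851 windows) and in those of 5 of the 8 genes (red lines, numbered where a gene has several starts). The windows of the 5 genes run from 1 CG for Islr to 21 for Nxph1, and the 3 of Islr2 hold 14, 6 and 11.

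Islr2 was higher in every knockdown array than in any control array. On the log2 scale it read 9.04, 9.02, 8.89 and 8.88 in control replicates 1 to 4, and 10.36, 10.59, 10.53 and 10.24 in knockdown replicates 1 to 4. The lowest knockdown array stood 1.20 log2 units above the highest control array. The mean was 8.96 ± 0.09 in control and 10.43 ± 0.16 in knockdown cells (SD, n = 4 arrays per group), which is a difference of 1.47 (SE 0.09) or 2.78-fold. Against the control mean, single knockdown arrays stood between 2.44-fold and 3.10-fold higher, so that no array carried the difference alone. By this measure Islr2 held place 11 among the 284 genes that met the study's gene rule in this direction. That rule asks for an adjusted p under 0.05 in a majority of the gene's probe sets and a change of at least 1.5-fold in the most significant of them.

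Islr, which lies next to Islr2 on chromosome 9, differed far less. It read 8.11, 7.88, 7.78 and 8.02 in control replicates 1 to 4, and 8.30, 8.32, 8.08 and 8.16 in knockdown replicates 1 to 4. The groups overlapped, since knockdown replicate 3 lay below control replicate 1, and Islr lay below the array median on all 8 arrays. The difference of the means was 0.27 (SE 0.09, 95% confidence interval 0.06 to 0.47), or 1.20-fold. Within each array the log2 signal of Islr2 exceeded that of Islr by 0.85 to 1.14 in control cells and by 2.06 to 2.45 in knockdown cells. The gap changed by 1.21 between the groups. Its size depends on the probes, and its change may too, since Islr is read by a dim probe set.

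Among the 4 neurexophilin genes, Nxph4 alone had all knockdown arrays above all control arrays. It read 8.66, 8.61, 8.40 and 8.60 in control replicates 1 to 4, and 10.10, 9.46, 9.10 and 10.17 in knockdown replicates 1 to 4. Knockdown replicates 1 and 4 were thus high, replicate 2 lay between, and replicate 3 stood only 0.44 above the highest control. The mean was 8.57 ± 0.11 in control and 9.71 ± 0.51 in knockdown cells (SD, n = 4 arrays per group), a difference of 1.14 (SE 0.22) or 2.20-fold. Single knockdown arrays stood 1.45-fold to 3.03-fold above the control mean, and the SD of the knockdown arrays was the widest among the 8 genes. Nxph4 held place 38 among the 284 genes that met the gene rule in this direction. It no longer met the rule without knockdown replicate 4 or without control replicate 2, 3 or 4, where its log2 fold change was 0.99, 1.16, 1.08 and 1.15, nor at 1.02 with only passages 28 to 30 and the passage as a block. Islr2 met it in all 8 fits that leave out an array. Both genes were chosen by this same difference, and leaving out an array does not undo that choice. Their places and their standing under the rule are therefore a description and not a test.

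The other neurexophilin genes overlapped between the groups. Nxph3 read 8.67, 8.81, 8.78 and 8.71 in control replicates 1 to 4, and 8.96, 8.89, 8.84 and 8.79 in knockdown replicates 1 to 4. Only knockdown replicate 4 failed to clear the highest control, by 0.01, and the difference of the means was 0.13 (SE 0.06, 95% confidence interval -0.00 to 0.27). Nxph1, on probe set 10536401, read 7.42 to 7.84 in control cells and 7.64 to 7.95 in knockdown cells, with a difference of 0.14 (SE 0.10). On its second probe set, 10536405, the difference was 0.05 (SE 0.14), and control replicate 1 was the lowest control on both. Nxph2 lay far below the array median throughout, at 6.58 to 6.78 in control cells and 6.60 to 6.80 in knockdown cells. Its difference of 0.01 (SE 0.07, 95% confidence interval -0.15 to 0.17) was the smallest of the 8, read on a dim probe set. Within arrays, Nxph4 minus Nxph3 moved from between -0.38 and -0.01 in control cells to between 0.26 and 1.38 in knockdown cells.

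The neurexin genes, which encode the receptors, differed by small amounts. Nrxn2 read 9.18, 9.25, 9.28 and 9.13 in control replicates 1 to 4, and 9.37, 9.44, 9.33 and 9.44 in knockdown replicates 1 to 4. All knockdown arrays lay above all control arrays, with a gap of 0.05 between the nearest of them and a difference of the means of 0.18 (SE 0.06), or 1.13-fold. Nrxn3 read 7.30, 7.40, 7.36 and 7.30 in control replicates 1 to 4, and 7.56, 7.50, 7.35 and 7.47 in knockdown replicates 1 to 4. Here knockdown replicate 3 fell among the controls, and the difference was 0.13 (SE 0.06, 95% confidence interval -0.01 to 0.27). The difference between Nrxn2 and Nrxn3 within arrays shifted by 0.05 between the groups. The probe sets of these long genes read many transcript forms at once, so that alpha and beta neurexins were not separated.

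**Figure D2:**
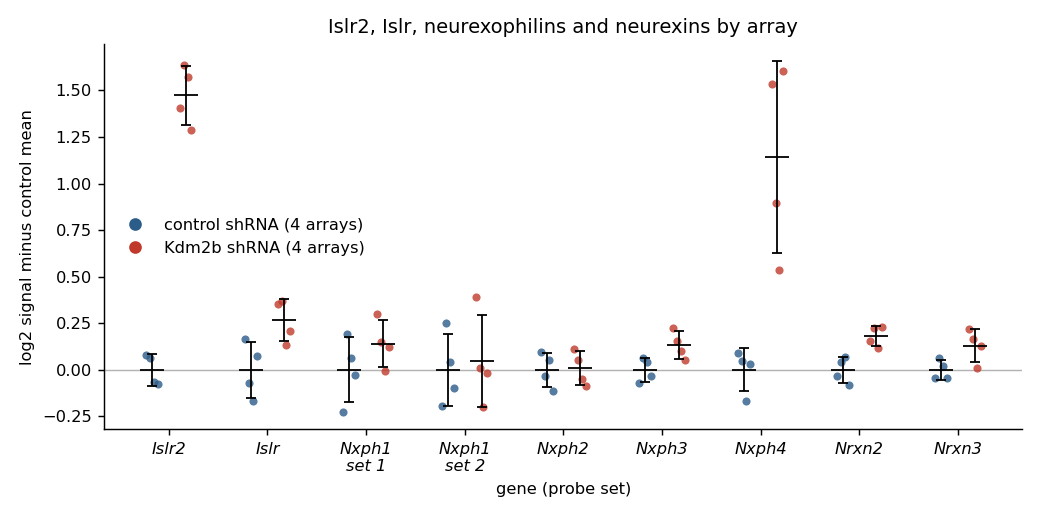
Log2 signal of the 9 probe sets of the 8 genes on each array, minus the control mean of the same probe set. Each point is an array, and the bars give means with their SD over 4 arrays. Islr2 and Nxph4 stand apart from the other genes, and the knockdown arrays of Nxph4 spread from 0.53 to 1.60.

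Of the 8 genes, 2 met the gene rule, both higher in the knockdown arrays, where 1.42% of all genes did so. All knockdown arrays lay above all control arrays for 3 genes, Islr2, Nxph4 and Nrxn2, against 11.6% of all genes. None lay wholly below the controls, against 9.03% of all genes. The log2 fold change was above 0 for all 8, and for 61.7% of all genes. The median of the 8 genes was 0.16, with the brightest probe set for each gene, and that of all genes was 0.05. Since the set was built around genes known to differ here, these counts are given beside the background and nothing is read from them. Of the 2 genes with a promoter sequence above, Islr2 had 14 CG in its window and a log2 difference of 1.47. Nxph2 had 15 CG and a log2 difference of 0.01, read on a dim probe set. Both sequences precede their gene. These 2 genes were shown because their differences were the largest and the smallest of those with a window. Whether CG content bears on the differences was not tested.

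The knockdown arrays ranked differently for Nxph4 and for Islr2. Kdm2b was lowest in knockdown replicates 1 and 4 (8.68 and 8.91) and highest in replicate 3 (9.45), whereas Nxph4 was highest in replicates 4 and 1 (10.17 and 10.10) and lowest in replicate 3 (9.10). Islr2 did not follow this order, since its highest arrays were replicates 2 and 3 (10.59 and 10.53). With each group's mean removed, Pearson's r over the 8 arrays was -0.818 between Kdm2b and Nxph4 and 0.216 between Kdm2b and Islr2, which is given as a description because each group holds only 4 arrays.

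Genes with a pattern most like these were sought over all 8 arrays by Pearson's r of the log2 signal. Unnamed transcripts, such as those with Gm or Rik symbols, were left out of the ranking. The groups form separate clusters, so that r mainly reflects the group difference, and it is also given with each group's mean removed. For Islr2 the 5 closest genes were Hnf4a, a nuclear receptor gene (r = 0.990), Clcn1, a chloride channel gene (0.990), Tnni3, which encodes cardiac troponin I (0.989), Mpzl2, an immunoglobulin adhesion gene (0.989), and Acaa2, a mitochondrial thiolase gene (0.985). With group means removed these fell to values between 0.388 and 0.719, so that the likeness to Islr2 lay largely in the step between groups. That step was smaller for each of them than for Islr2. Hnf4a, Mpzl2 and Acaa2 met the gene rule, at log2 fold changes of 0.91, 0.85 and 0.71, and Clcn1 and Tnni3 did not, at 0.33 and 0.48. For Nxph4 the 5 closest were H2-Ab1, an MHC class II gene (r = 0.995), Mideas, which encodes a partner of histone deacetylases (0.994), Ndufa4l2, which encodes a mitochondrial protein related to NDUFA4 (0.993), Slc2a4, a glucose transporter gene (0.991), and Agbl3, a carboxypeptidase gene (0.990). With group means removed r was still 0.959 to 0.987 for these genes over the 8 arrays, so that they shared the uneven levels of the knockdown replicates. They were picked as the highest r on these same arrays, where Nxph4 itself spread widely. Its knockdown SD was 0.51, against 0.16 for Islr2, so that the high remaining r is in part built into the choice. Of these 5, H2-Ab1 and Ndufa4l2 met the gene rule, at log2 fold changes of 0.95 and 1.27. Mideas, Slc2a4 and Agbl3 did not, at 0.38, 0.44 and 0.16, and Agbl3 was dim, at 6.59 to 6.81. Islr2 and Nxph4 had r = 0.811 with each other, and r = -0.681 with group means removed.

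**Figure D3:**
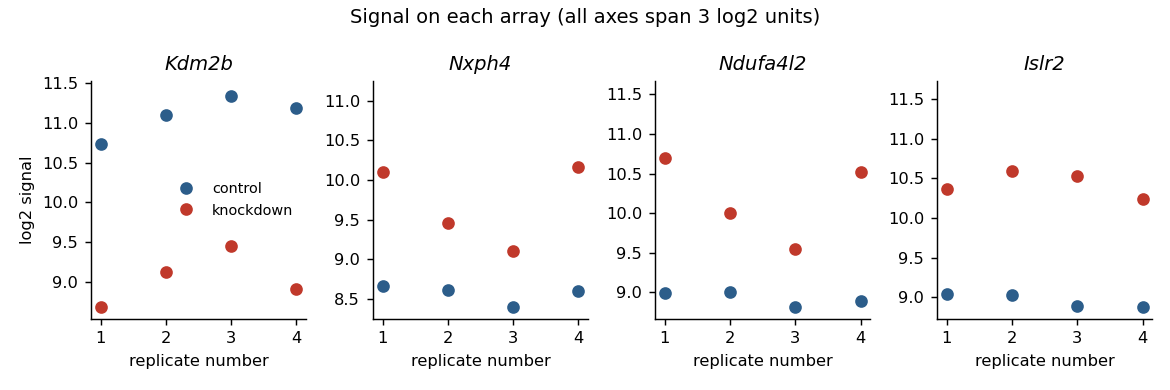
Log2 signal of Kdm2b, Nxph4, its neighbour Ndufa4l2 and Islr2 on each array, by replicate number (blue, control; red, knockdown; 1 point per array; each axis spans 3 log2 units). In the knockdown arrays Nxph4 and Ndufa4l2 are both lowest in replicate 3, where Kdm2b is highest, and Islr2 is not.

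Ndufa4l2 lies close to Nxph4 on chromosome 10, and the genes beside each of the 8 were examined as a separate question. On each side the 3 nearest genes that had their own probe set were taken, which came to 42 genes outside the set, and 3 of these met the gene rule, 2 higher and 1 lower, where 2.85% of all genes did. Ndufa4l2, a gene induced by hypoxia, read 8.99, 9.01, 8.82 and 8.89 in control replicates 1 to 4, and 10.70, 10.01, 9.55 and 10.53 in knockdown replicates 1 to 4. No knockdown array overlapped the controls, and the log2 fold change was 1.27 (SE 0.22, limma adjusted p = 0.0150), or 2.41-fold. That call was lost with only passages 28 to 30 and the passage as a block, at 1.09 (limma adjusted p = 0.115). Between Ndufa4l2 and Nxph4 lies Shmt2, a serine metabolism gene, whose log2 fold change was 0.27 (SE 0.08, limma adjusted p = 0.0668).

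On the other side of Nxph4, Lrp1, an endocytic receptor gene, and Stat6, a transcription factor gene, had log2 fold changes of 0.52 and 0.50 (SE 0.18 and 0.13, limma adjusted p = 0.121 and 0.0452), the latter short of 1.5-fold. Control replicate 1 was the highest control for Lrp1, at 10.86, and without that array both met the gene rule, at 0.68 and 0.62. Stac3 and Nab2, the outermost genes of the stretch, had log2 fold changes of 0.15 and -0.05 (SE 0.07 and 0.14). None of the 5 other genes around Islr2 met the gene rule. Ccdc33 had a log2 fold change of 0.35 (SE 0.05, limma adjusted p = 0.00798), short of 1.5-fold, with all knockdown arrays above all controls. Stra6, a retinol transporter gene, had 0.25 (SE 0.09, limma adjusted p = 0.141), and 1600029O15Rik, Pml and Stoml1 on the other side had 0.09, -0.01 and 0.09 (SE 0.08, 0.05 and 0.07). The remaining calls were Cyp11a1, a steroid side-chain cleavage gene on the far side of Islr, at 0.76 (SE 0.12, limma adjusted p = 0.0113, but 0.0641 with only passages 28 to 30 and the passage as a block), and Gm5662, near Nrxn3, at -6.34 (SE 0.34, limma adjusted p = 9.33e-05). Gm5662 read 10.73 to 12.25 in control arrays and 4.89 to 5.66 in knockdown arrays, so far below the array median that the size of its fall is not well determined.

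**Figure D4:**
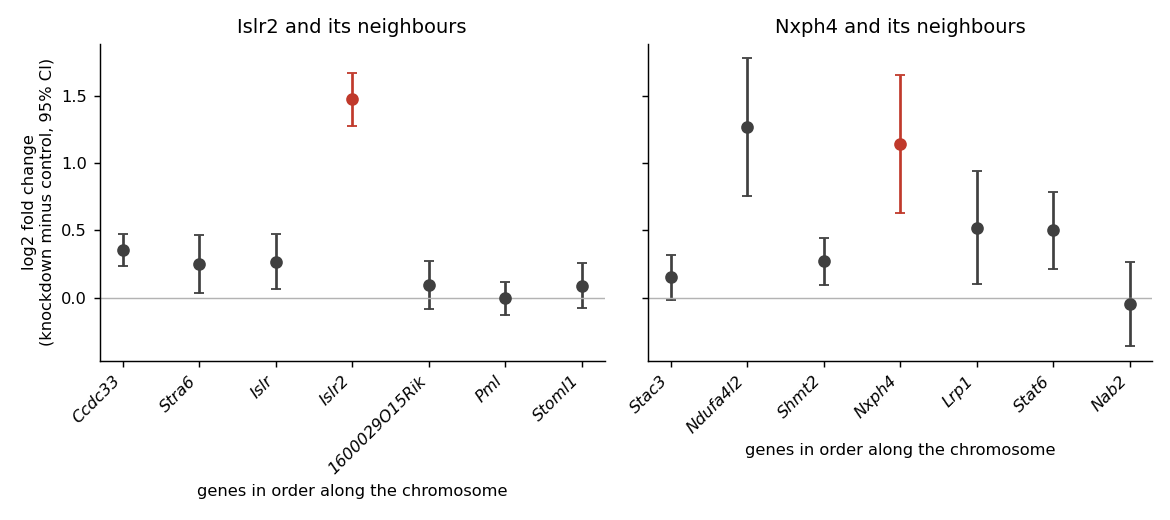
Log2 fold change (knockdown minus control) of Islr2 (left) and Nxph4 (right), in red, and of the 3 nearest measured genes to either side, in grey, in chromosomal order. Bars are 95% confidence intervals from the moderated fit (n = 4 arrays per group). Islr2 is at 1.47 and the highest gene shown beside it, Ccdc33, at 0.35, whereas Ndufa4l2 beside Nxph4 reaches 1.27. Cyp11a1, the next measured gene beyond Ccdc33, is not shown and was at 0.76.

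Genes that act with neurexins were then examined, from lists that hold none of the 8 genes. Of 25 measured ligands of neurexins, 2 rose by the gene rule and 1 fell, which leaves 22 short of it, where 1.42% of all genes rose and 1.43% fell by it. Their median log2 fold change was 0.08. Igsf21, an immunoglobulin protein gene of inhibitory synapses, read 10.61, 10.39, 10.00 and 9.84 in control replicates 1 to 4, and 11.05, 11.54, 11.41 and 11.50 in knockdown replicates 1 to 4. It rose by 1.16 (SE 0.18, limma adjusted p = 0.00864), with no overlap between the groups.

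Clstn1, which encodes the synaptic cadherin calsyntenin, read 10.71 to 10.88 in control cells, and 11.66, 11.32, 11.16 and 11.58 in knockdown replicates 1 to 4. It rose by 0.66 (SE 0.11, limma adjusted p = 0.0123), and without knockdown replicate 1 it fell short of 1.5-fold, at 0.58. Adgrl2, which encodes the adhesion receptor latrophilin, was the gene that fell. It read 10.75, 10.33, 11.01 and 10.99 in control replicates 1 to 4, and 9.42 to 9.65 in the knockdown arrays, on its most significant probe set. The log2 fold change was -1.23 (SE 0.15, limma adjusted p = 0.00346), and its 8 probe sets gave values from -1.23 to -0.56. Too few of those probe sets passed without control replicate 3, so that the call was lost there, at -1.15. With only passages 28 to 30 and the passage as a block, Igsf21 alone of the 3 met the rule, at 1.15.

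No gene met the rule among 7 contactin-associated genes of the neurexin superfamily, with unadjusted limma p values under 0.05 for 1 higher and 1 lower gene. Over all genes, 16.8% were higher and 13.6% lower at that unadjusted threshold, and the counts given below for other lists are to be read beside these shares. The smallest p values belonged to Cntnap3 and Cntnap5c, at -0.17 and 0.19 (SE 0.06 and 0.07, limma adjusted p = 0.118 and 0.135). Of 18 scaffolds and adaptors of the synapse, including the cytosolic partners of neurexins, none met it, with unadjusted limma p values under 0.05 for 5 higher and 2 lower genes. The median log2 fold changes of these lists were 0.03 and 0.05. Cask, a kinase-like scaffold that binds the neurexin tail, had a log2 fold change of -0.46, and its partner Caskin1 one of 0.37 (SE 0.10 and 0.08, limma adjusted p = 0.0285 and 0.0313). Both passed the adjusted threshold short of 1.5-fold, in opposite directions and without overlap between the groups.

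The relatives of Islr2 by domain gave a similar picture. Of 24 measured membrane proteins with LRRs and immunoglobulin domains none met the rule, with unadjusted limma p values under 0.05 for 7 higher and 2 lower genes. The median log2 fold change of that list was 0.08. Lrfn3, a synaptic adhesion gene, had a log2 fold change of 0.32, and Lrig3 one of -0.26 (SE 0.08 and 0.07, limma adjusted p = 0.0479 and 0.0628). Of 11 LRR proteins of neurons without that pairing, such as the SLITRK family, none met it either, with unadjusted limma p values under 0.05 for 2 higher and 2 lower genes and a median of -0.07. Flrt3 and Elfn2 had log2 fold changes of -0.29 and 0.17 (SE 0.09 and 0.06, limma adjusted p = 0.0797 and 0.130). Of the receptors that Islr2 is known to associate with, Ret and Ngfr were measured and had log2 fold changes of 0.06 and 0.09 (95% confidence intervals -0.14 to 0.27 and -0.03 to 0.22). Both intervals include 0.

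**Figure D5:**
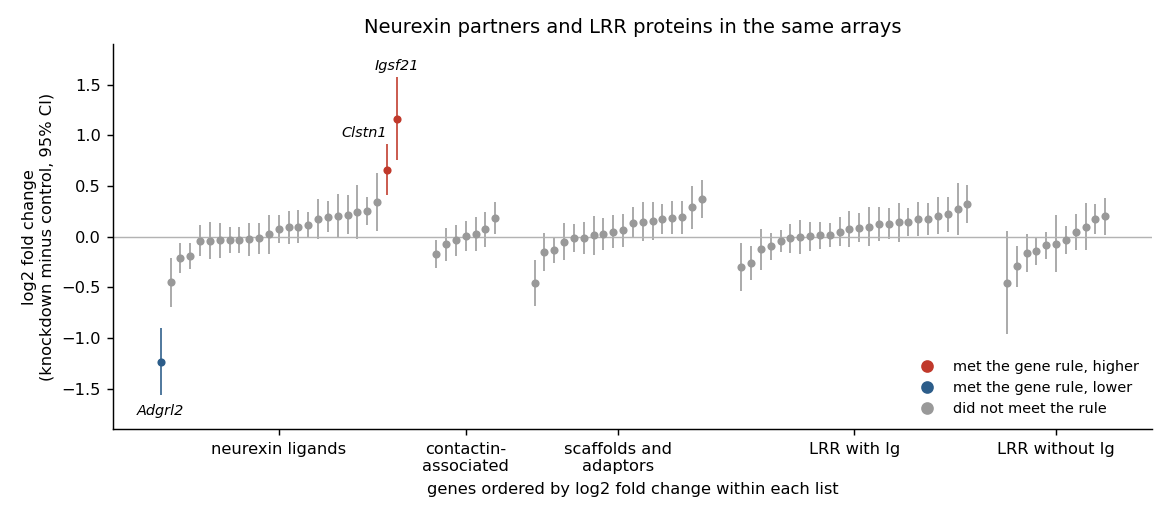
Log2 fold change (knockdown minus control) with 95% confidence interval for each measured gene of 5 lists, ordered within each list (n = 4 arrays per group). Red and blue mark genes that met the gene rule. All 3 of them, Igsf21, Clstn1 and Adgrl2, are in the list of neurexin ligands, and Adgrl2 is lower. Over all genes, 2.85% met the rule.

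Markers of neural cells were read beside these results. Of 14 neuron markers none rose and 1 fell by the gene rule, which 1.42% and 1.43% of all genes met as higher and as lower, with unadjusted limma p values under 0.05 for 5 higher and 3 lower genes. Gap43, which acts in growing axons, fell by 1.28 (SE 0.13, limma adjusted p = 0.00204), and Map2, a dendrite gene, had a log2 fold change of -0.35 (SE 0.09, limma adjusted p = 0.0541). Elavl3, which encodes a neuronal RNA binding protein, pointed the other way, at 0.74 (SE 0.20, limma adjusted p = 0.0607), and met the rule as higher without knockdown replicate 3, at 0.91, and with bright probe sets only. Tubb3, Stmn2 and Mapt, genes of the neuronal cytoskeleton, had log2 fold changes of 0.29, 0.24 and 0.23. The neurofilament genes Nefl and Nefm, also of the cytoskeleton, went the other way, at -0.45 and -0.13. The mean level of the list was 9.08 to 9.20 in control arrays and 9.08 to 9.17 in knockdown arrays. Of 8 neural progenitor markers, Pax6 fell by 1.01 (SE 0.20, limma adjusted p = 0.0212) and Nes had a log2 fold change of -0.78 (SE 0.20, limma adjusted p = 0.0512). Pax6 no longer met the rule without knockdown replicate 2 or 4 or control replicate 2, at adjusted p values of 0.0619 to 0.0683 from limma.

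With the replicate number as a block, Nes also met the rule, as lower, and Msi1, an RNA binding protein gene of progenitors, as higher (limma adjusted p = 0.0376 and 0.0199, against 0.0582 for Msi1 without the block). The list mean of progenitor markers was 9.16 to 9.37 in control arrays and 8.95 to 9.26 in knockdown arrays. The list means of both neural marker sets overlapped between the groups. Of 8 fibroblast markers, Thy1, which neurons also express, rose by 0.72 (SE 0.05, limma adjusted p = 0.000475), Dcn had a log2 fold change of -0.35 (SE 0.09, limma adjusted p = 0.0533), and the list mean was 8.04 to 8.47 in control and 8.12 to 8.41 in knockdown arrays. None of 7 primitive endoderm markers met the rule, with unadjusted limma p values under 0.05 for 4 higher genes and 1 lower gene, and Sox7 and Dab2 had log2 fold changes of 0.40 and -0.95 (limma adjusted p = 0.0279 and 0.0525). The other probe set of Dab2 gave 0.08 (limma adjusted p = 0.624). Of the 12 ESC markers, Tbx3 rose by 0.82 (SE 0.15, limma adjusted p = 0.0180). Fgf4 had a log2 fold change of 0.37 (limma adjusted p = 0.0238). Unadjusted limma p values were under 0.05 for 8 higher and 0 lower ESC markers, against 16.8% and 13.6% of all genes. Wholly above the controls lay 6 of them, against 11.6% of all genes, and the list median was 0.22. The list mean was 12.75 to 12.96 in control and 13.08 to 13.12 in knockdown arrays, without overlap. Tbx3 no longer met the rule when replicate 2 or 4 of either group was left out, at adjusted p values of 0.0524 to 0.0608 from limma. With only passages 28 to 30 and the passage as a block, Gap43, Pax6 and Tbx3 did not meet the rule, at log2 fold changes of -1.17, -1.12 and 0.83. Whether the higher ESC marker level has a part in the results on Islr2 and Nxph4 was not tested.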

How the data were processed

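Total RNA of 8 samples, 4 per shRNA, was read on Mouse Gene ST arrays from Affymetrix, each sample on its own array. The authors deposited log2 values made from probe intensities with RMA in the package oligo (version 1.18.1, also in the submitters' processing notes). The genome build and the probe set annotation behind these values are not given in the sources used. Scanner intensities were not used, so that neither background correction nor normalization could be varied at the probe level, and no slide or scan batch is known.

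Probe sets were named through GEO's platform annotation, with symbols updated by gene identifier from RefSeq (GRCm38.p6), which also gave gene order and promoter sequences. Of 35556 probe sets, 21789 name 1 gene, 12146 are unnamed here and 1621 name several genes. No protein sequence was used.

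The linear model of limma 3.58.1 (R 4.3.3; lmFit, eBayes) compared knockdown with control on the full set of probe sets, and p values were adjusted over that set by the method of Benjamini and Hochberg. The gene rule follows the study's methods. The number of arrays limits the precision. The pipeline was tested on simulated data. Same-numbered arrays deviated from their group means together (r of 0.118 to 0.355, against -0.231 to 0.0747 for different numbers), and the numbers therefore count as pairs. The main fit has the group as its only term, as in the comparison of 2 groups in the study's methods. Its SE, intervals and p values therefore leave this pairing out, and values with the block are named as such. With the block the SE of Nxph4 was 0.16 in place of 0.22, and that of Nxph1 was 0.11 in place of 0.10. Figures were drawn with matplotlib 3.10.9.

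The genes and the lists were chosen with earlier results of these data known. Named genes were the 8 genes, Kdm2b, list genes that met the rule or, with fewer than 2, those with the 2 smallest p values, all neighbours of Islr2 and Nxph4, called neighbours of the other genes, and the 5 genes most like Islr2 and Nxph4 in pattern. Unnamed transcripts were left out when the genes most alike in pattern were ranked. Msi1, Elavl3, Tubb3, Stmn2, Mapt, Nefl and Nefm were named after their values were seen. Alternatives were the replicate block, leaving out each array, passages 28 to 30 only, centring on array medians, trended and robust eBayes, array weights, bright probe sets only, the brightest probe set per gene, 5 neighbours in place of 3, and 250-base promoter windows.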

Additional observations from a re-analysis of the deposited data

Results flagged for a closer look

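Among 96 groups of 4 arrays examined for the named genes, 4 held an array far from the other 3 by Dixon's ratio of the gap to the range, where chance gives about 1 in 20 groups, or 4.8. None of them belongs to Islr2, Islr, a neurexophilin or a neurexin. Knockdown replicate 4 stood above the others for Dab2 (9.60 against 9.11 to 9.17, ratio 0.876) and for Nab2 (10.87 against 10.61 to 10.65, ratio 0.868). Knockdown replicate 1 was high for Stoml1 (10.89 against 10.67 to 10.70, ratio 0.878). Control replicate 1 was high for Lrfn3 (8.39 against 8.11 to 8.14, ratio 0.897).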

How the results depend on the processing

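The log2 fold change of Islr2 ran from 1.42 to 1.54 when each array was left out, and that of Nxph4 from 0.99 to 1.34. The differences of Islr, Nxph1, Nxph3, Nrxn2 and Nrxn3 stayed above 0 in those fits, and that of Nxph2 ran from -0.03 to 0.04. With only passages 28 to 30 and the passage as a block, Nxph1 came to -0.10, 88 genes were higher and 72 lower over all genes, and the counts were 1 higher and 0 lower for neurexin ligands, 0 lower for neuron markers, 0 lower for progenitor markers and 1 among neighbours. That fit rests on 6 of the 8 arrays, and the cause of the losses was not tested. The replicate block left Islr2 at 1.47 (standard error 0.07) and Nxph4 at 1.14 (standard error 0.16), gave 1 progenitor marker higher and 2 lower, and changed no other call on named genes. With bright probe sets only, 1 neuron marker was higher, 1 progenitor marker was higher and 2 lower, and 1 neighbour was called, and with array weights 2 neuron markers were lower, 1 progenitor marker was higher and 2 lower, and 5 neighbours were called. Trended and robust estimation gave 2 progenitor markers lower, and 5 neighbours on each side gave 5 calls. Leaving out each array gave 182 to 405 genes higher and 166 to 424 lower, 1 to 2 neurexin ligands higher and 0 to 1 lower, 0 to 1 neuron markers higher, 0 to 1 progenitor markers higher and 0 to 1 lower, and 3 to 5 neighbours. The arrays behind those moves were knockdown replicate 4 (188 genes higher, 180 lower), control replicate 3 (182 and 184, and 0 ligands lower), knockdown replicate 2 (166 lower), knockdown replicate 1 (1 ligand higher), knockdown replicate 3 (1 neuron and 1 progenitor marker higher), and control replicate 1 (5 neighbours). Without knockdown replicate 2 or 4, 0 progenitor markers were lower. Some named log2 fold changes near 0 changed sign. Cntnap3 was 0.050 on its brightest probe set. With passages 28 to 30, Nab2 was 0.073 and Pml 0.0028. Without control replicate 4, Nab2 was 0.053 and Pml 0.016, and without an array they ran from -0.16 to 0.053 and from -0.038 to 0.016, and Ret from -0.0096 to 0.12.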
